A study of Bos taurus with 15 samples.

Results

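NWD2, PTPN20 and MARCH1 are 3 genes of the 31999 rows in a count table of bovine morulae, the stage at which cleaving cells compact before a blastocyst forms. They were chosen by their measured values: each was higher in the androgenetic than in the parthenogenetic libraries, so that difference is described here and not tested. RNA was sequenced from 5 libraries of haploid androgenetic embryos (titles beginning TII), 5 of haploid parthenogenetic embryos (titles beginning CHX) and 5 of diploid embryos from intracytoplasmic injection of a sperm (ICSI). An androgenetic embryo carries sperm chromosomes without those of the oocyte, a parthenogenetic embryo carries oocyte chromosomes without those of a sperm, and an ICSI embryo carries both sets. Both haploid groups thus differ from each other in parental origin and in how the embryos were made, and each differs from ICSI embryos in ploidy as well; within a comparison these cannot be told apart. The labels named no breed, bull, oocyte donor or collection day, and did not say how many embryos went into a library.

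The genes belong to unrelated families. NWD2 encodes a protein with a NACHT domain, a nucleotide-binding module of signalling ATPases, and WD repeats, which form a propeller that other proteins bind. PTPN20 encodes a classical non-receptor tyrosine phosphatase, an enzyme that takes phosphate off tyrosine residues. MARCH1, called MARCHF1 in RefSeq, encodes a membrane-anchored ubiquitin ligase with a RING-CH domain, which in human and mouse antigen-presenting cells marks MHC class II molecules and CD86 for removal from the cell surface.

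Totals ran from 19968077 to 28981601 counts per library, and 13564 to 19950 rows had a count. The library with the fewest such rows was androgenetic replicate 6 (13564), parthenogenetic replicate 6 (16154) and ICSI replicate 5 (15286) in its group. The library most like androgenetic replicate 4 by rank correlation over the tested rows was ICSI replicate 4, and an ICSI library was also the most like parthenogenetic replicates 2, 3, 5 and 6. The imprinted gene SNURF, which mammals transcribe from the father's copy and which was picked with its values known, had 161 to 316 CPM (counts-per-million values on library sizes scaled by TMM factors) in androgenetic, 0.0445 to 1.54 CPM in parthenogenetic and 79.1 to 201 CPM in ICSI libraries, so the parthenogenetic libraries stood apart from the other 10. Among markers of the preimplantation embryo, the homeobox genes ARGFX and DUXA had counts in all 15 libraries, with 256 to 3923 CPM of ARGFX and 35.9 to 6423 CPM of DUXA. The pluripotency factor SOX2 had 0.163 to 8.28 CPM, and the homeobox gene DPRX was at or near 0 (0 to 1.22 CPM). Only 777 of the 31999 rows had a gene symbol, the others an Ensembl identifier or a LOC number. The remaining listed embryo markers and all 34 markers of oocytes, cumulus cells, sperm and leukocytes had no row under their symbol and were not analysed here. In such whole-embryo samples, fewer cells that transcribe a gene and less of its RNA per cell cannot be told apart.

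NWD2 was high in androgenetic morulae and stood at a few CPM in most others. Its levels were 84.5, 77.3, 19.98, 27.7 and 23.2 CPM in androgenetic replicates 1, 2, 4, 5 and 6. They were 1.78, 3.71, 3.21, 0.938 and 17.1 CPM in parthenogenetic replicates 1, 2, 3, 5 and 6. The 5 ICSI libraries had 1.52, 1.02, 1.44, 1.09 and 3.79 CPM. Every androgenetic library lay above every other library, but parthenogenetic replicate 6 came close to the lowest of them. The androgenetic mean was 46.5 ± 31.6 CPM, the parthenogenetic mean 5.34 ± 6.66 CPM and the ICSI mean 1.77 ± 1.15 CPM (SD, n = 5 each).

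By mean level, PTPN20 was highest in androgenetic morulae and lowest in parthenogenetic ones. It had 7.33, 21.4, 6.85, 29.0 and 27.7 CPM in androgenetic replicates 1, 2, 4, 5 and 6. Parthenogenetic replicates 1, 2, 3, 5 and 6 had 1.35, 2.59, 1.92, 2.25 and 1.87 CPM. ICSI replicates 1 to 5 had 4.45, 2.30, 4.61, 1.59 and 12.1 CPM. The androgenetic libraries were split, with replicates 1 and 4 below ICSI replicate 5 and the other 3 above every ICSI library. Of the parthenogenetic libraries, 4 lay inside the ICSI range and 1 below it. The parthenogenetic libraries formed the narrowest set, within 1.91-fold of each other, against 4.24-fold in androgenetic and 7.61-fold in ICSI libraries. On average, androgenetic morulae had 18.5 ± 10.8 CPM, parthenogenetic morulae 1.99 ± 0.462 CPM and ICSI morulae 5.01 ± 4.18 CPM (SD, n = 5 each).

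MARCH1 was likewise highest in androgenetic morulae. It had 39.3, 16.9, 12.6, 33.8 and 13.6 CPM in androgenetic replicates 1, 2, 4, 5 and 6. In parthenogenetic replicates 1, 2, 3, 5 and 6 the level was 0.889, 1.04, 4.74, 1.63 and 5.07 CPM. ICSI replicates 1 to 5 gave 0.891, 4.30, 4.397, 2.498 and 11.5 CPM. On this TMM-scaled measure the lowest androgenetic library, at 12.6 CPM, lay just above the highest ICSI library. Without the TMM factors (0.649 in androgenetic replicate 6, 0.938 in ICSI replicate 5) these groups overlapped. Androgenetic replicate 6 had 251 of 28462700 counts, a smaller share than the 245 of 22810004 in ICSI replicate 5. The parthenogenetic range lay almost wholly within the ICSI range. The mean of the androgenetic libraries was 23.3 ± 12.4 CPM, that of the parthenogenetic libraries 2.67 ± 2.06 CPM and that of the ICSI libraries 4.71 ± 4.04 CPM (SD, n = 5 each).

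**Figure D1:**
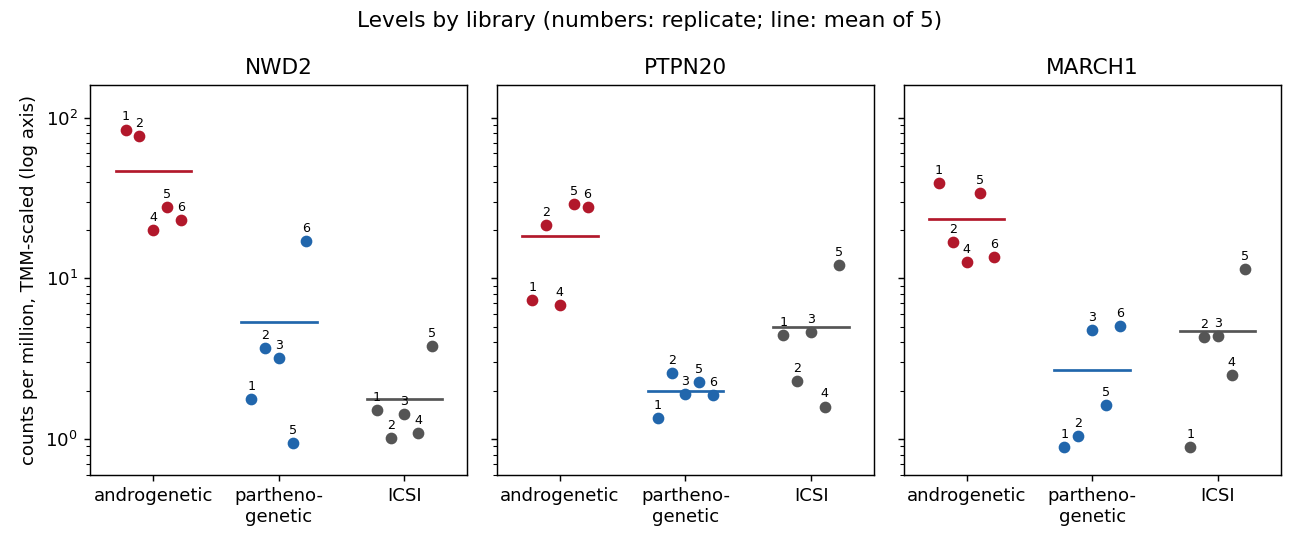
Each point is a library, numbered by its replicate, with its TMM-scaled CPM on a log axis, and the line is the mean of 5 libraries. On this scale NWD2 and MARCH1 in the 5 androgenetic libraries lie above every parthenogenetic and ICSI library, and PTPN20 overlaps ICSI through ICSI replicate 5 at 12.1 CPM.

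The distance between the haploid groups, which chose the genes, was nearly the same for all 3. The log2 fold change of androgenetic minus parthenogenetic was 3.12 ± 0.77 for NWD2, 3.21 ± 0.70 for PTPN20 and 3.12 ± 0.76 for MARCH1 (fitted value ± SE). Over the 16375 rows with enough counts to test, edgeR's quasi-likelihood test called 0.916% higher in this contrast at a Benjamini-Hochberg adjusted p under 0.05, and no call is given for the members. All 3 were among the 1.78% of rows whose androgenetic libraries all lay above the parthenogenetic ones, and nothing is read from this, since the contrast made the choice. Parthenogenetic replicate 6 narrowed the NWD2 difference: without it the log2 fold change was 4.26.

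ICSI morulae took no part in the choice, and the genes differed in where these libraries fell. For NWD2 the order of mean levels was androgenetic, parthenogenetic, ICSI, and for PTPN20 and MARCH1 it was androgenetic, ICSI, parthenogenetic. The parthenogenetic and ICSI levels were neighbours in each case, and edgeR called no difference between them. The comparisons of each haploid group with ICSI reuse libraries that chose the genes, so their tests are not independent of the choice. With 5 libraries a group, the weights of the mean of both haploid groups minus ICSI do not use the difference between the haploid groups. That contrast still uses the haploid libraries, and it is independent of their difference only where the groups have equal spread, which was not tested.

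NWD2 was 26.3-fold higher in androgenetic than in ICSI morulae, a log2 fold change of 4.72 ± 0.83 (edgeR quasi-likelihood test, adjusted p = 0.0270). Of the 16375 tested rows, 10 had a smaller p and 123 a larger log2 fold change in that contrast. Both counts include ENSBTAG00000001491, a row whose counts nearly match those of NWD2. MARCH1 had a log2 fold change of 2.30 ± 0.74 and PTPN20 one of 1.88 ± 0.66, and neither passed in edgeR (adjusted p = 0.0846 and 0.118). So 1 of the 3 genes was called higher, where 1.76% of all tested rows were (288 higher and 173 lower, or 372 and 139 with DESeq2 size factors). On TMM-scaled CPM, NWD2 and MARCH1 were also among the 3.05% of rows whose 5 androgenetic libraries all lay above the 5 ICSI libraries. Without the TMM factors this did not hold for MARCH1. DESeq2 called all 3 genes higher than in ICSI, with adjusted p = 0.0136 for PTPN20 and 0.00773 for MARCH1.

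The NWD2 call depended on which libraries entered the fit. It passed in 9 of 15 edgeR fits that each left out 1 library, and its log2 fold change stayed between 4.38 and 5.25. It was lost without ICSI replicate 1, 2, 3 or 4 and without androgenetic replicate 1 or 2, at adjusted p between 0.0552 and 0.0911. The same fits left 0 or 1 called row in the whole table. Without ICSI replicate 5, PTPN20 had 2.57 (adjusted p = 0.0452) and MARCH1 had 3.005 (adjusted p = 0.0440 in edgeR), and both passed.

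In parthenogenetic against ICSI morulae the values differed in sign between genes and none passed. NWD2 had a log2 fold change of 1.59 ± 0.73, PTPN20 one of -1.33 ± 0.66 and MARCH1 one of -0.81 ± 0.71 (edgeR, adjusted p = 0.99997 for each). The contrast called 0% of rows higher and 12 rows lower in edgeR, with 131 rows higher at an unadjusted p under 0.05, and neither DESeq2 nor limma voom called a row higher. The NWD2 value was 0.44 without parthenogenetic replicate 6. For PTPN20 it was -0.70 and for MARCH1 -0.16 without ICSI replicate 5.

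Taken as a mean, the haploid groups differed from ICSI by a log2 fold change of 3.15 ± 0.73 for NWD2, 0.28 ± 0.57 for PTPN20 and 0.75 ± 0.63 for MARCH1. None passed over all rows (edgeR adjusted p = 0.243, 0.953 and 0.816), and the test called 0% of rows higher, although 773 were higher at an unadjusted p under 0.05. DESeq2 called 237 rows higher in this contrast and limma voom called 0. DESeq2 gave none of the 3 genes an adjusted p here, and its log2 fold change for NWD2 was 3.22 ± 0.62 (unadjusted p = 2.51e-07). NWD2 had 24 rows with a smaller p, where PTPN20 had 10810 and MARCH1 had 5045. On the log scale the fitted ICSI level lay between both haploid levels for PTPN20 and MARCH1 and below both for NWD2. Without ICSI replicate 5 the PTPN20 value was 0.94 and the MARCH1 value 1.42.

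**Figure D2:**
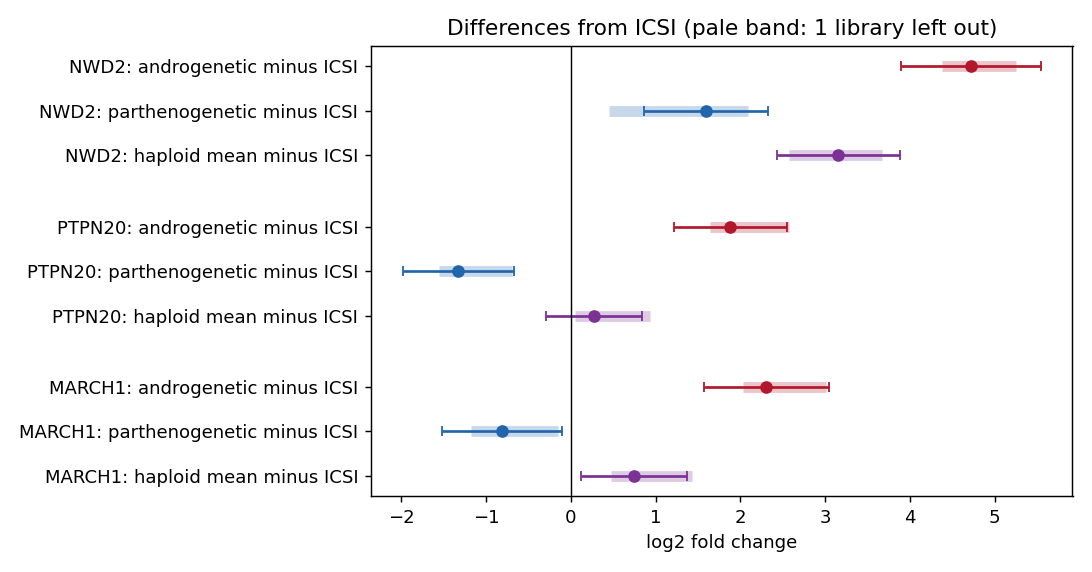
Points are edgeR log2 fold changes from ICSI with their SE, and pale bands run from the lowest to the highest value when any 1 of the 15 libraries is left out. Androgenetic minus ICSI is positive for all 3 genes (4.72, 1.88 and 2.30), while parthenogenetic minus ICSI is positive for NWD2 (1.59) and negative for PTPN20 and MARCH1 (-1.33 and -0.81).

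Within the androgenetic group the genes were not high in the same libraries. Replicates 1 and 2 held 36.3% and 33.2% of the summed NWD2 level over the 5 libraries. Replicates 5, 6 and 2 held 31.5%, 29.99% and 23.2% of PTPN20, and replicates 1 and 5 held 33.8% and 29.1% of MARCH1. Replicate 1, the highest for NWD2 and MARCH1, held 7.94% of PTPN20. All 3 genes were lowest in replicate 4, at 8.59% for NWD2, 7.42% for PTPN20 and 10.9% for MARCH1. It had the most rows with a count of the androgenetic libraries (18633) and was the one nearest to an ICSI library. Without it, androgenetic minus ICSI was 4.90 for NWD2, 2.09 for PTPN20 and 2.45 for MARCH1, and the last 2 still did not pass (edgeR adjusted p = 0.0707 and 0.0658).

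**Figure D3:**
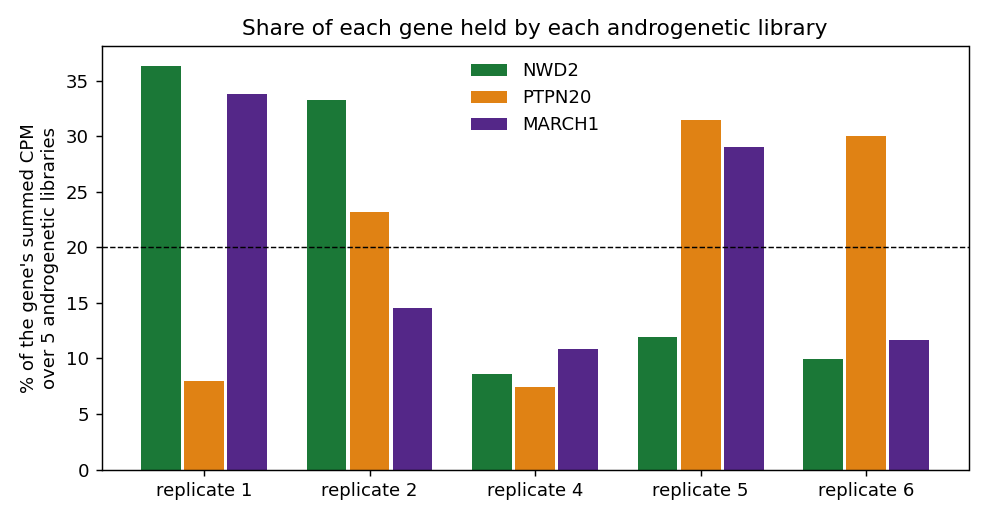
Bars give each androgenetic library's percentage of a gene's summed CPM over the 5 libraries, and the dashed line marks an equal share of 20%. NWD2 is concentrated in replicates 1 and 2, PTPN20 in replicates 2, 5 and 6, and MARCH1 in replicates 1 and 5, while replicate 4 is the lowest for every gene.

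Poisson error on reads was smaller than this spread, but it does not cover the noise of amplification before sequencing, which was not measured. The coefficient of variation (SD over mean) of NWD2 was 67.9% among androgenetic libraries, where counting alone gives 4.83% in the library with fewest NWD2 counts (428). For PTPN20 it was 58.4% against 7.74% (167 counts), and for MARCH1 53.3% against 6.31% (251 counts). In parthenogenetic libraries PTPN20 was the exception, with 23.1% among libraries and 16.2% from counting at 38 counts. The fitted biological coefficients of variation were 0.776, 0.720 and 0.774 for NWD2, PTPN20 and MARCH1, below the median of 0.945 over all tested rows.

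Libraries with few detected rows were in part those with high levels. In both the parthenogenetic and the ICSI group, the library with the fewest rows was the highest for NWD2 and MARCH1, at 17.1 and 5.07 CPM in parthenogenetic replicate 6 and 3.79 and 11.5 CPM in ICSI replicate 5. ICSI replicate 5 was highest for PTPN20 as well, at 12.1 CPM, whereas parthenogenetic replicate 6 ranked the fourth of 5 at 1.87 CPM. Androgenetic replicate 6, with the fewest rows of all, was the highest for none of them. With rows detected as a covariate, androgenetic minus ICSI was 4.14 ± 0.80 for NWD2, 1.21 ± 0.64 for PTPN20 and 2.04 ± 0.75 for MARCH1, and none passed (edgeR adjusted p = 0.0866, 0.318 and 0.171). Leaving out the library with fewest rows in every group gave 5.48, 2.44 and 3.20, and all 3 passed (adjusted p = 0.00195, 0.0289 and 0.0136).

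**Figure D4:**
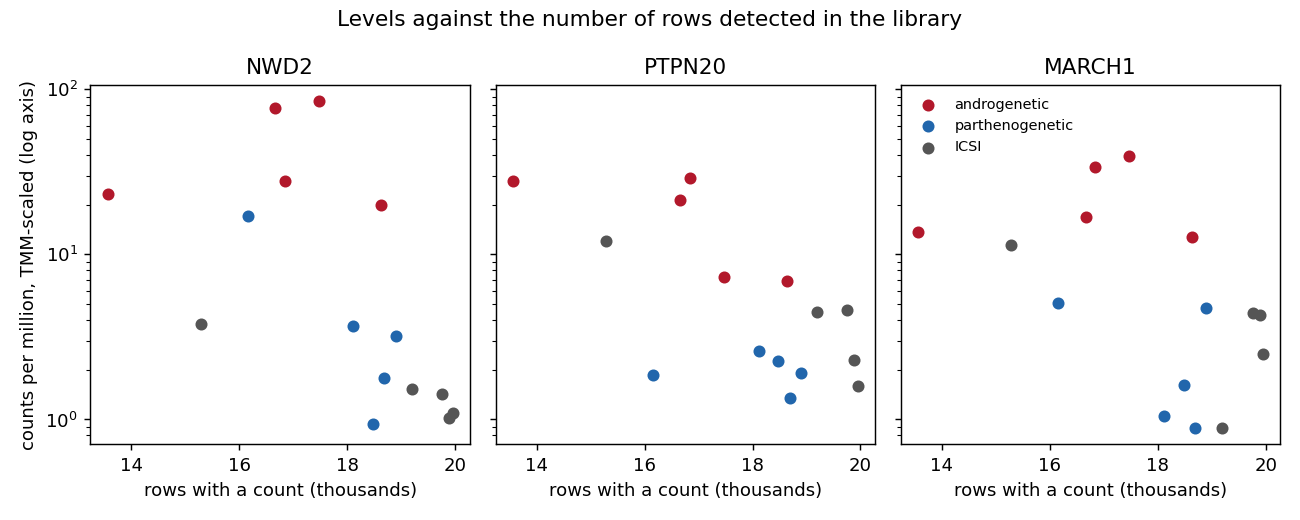
Each point is a library, with its number of rows that had a count on the horizontal axis and the gene's level as TMM-scaled CPM on a log axis. The library with fewest rows is the highest of its group for NWD2 and MARCH1 in the parthenogenetic and ICSI groups but not in the androgenetic group.

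MARCH1 was the one member whose relatives could be tested, and all 11 RING-CH ligase genes had a row under an older symbol. These ligases sit in different membranes: MARCH5 in the outer mitochondrial membrane, MARCH6 in the endoplasmic reticulum, where it takes part in protein degradation, and MARCH8, the closest relative of MARCH1, in endosomes and the plasma membrane. Of the 9 rows that passed the expression filter, 0 were called higher and 0 lower in androgenetic against ICSI morulae. At an unadjusted p under 0.05, 1 was higher (MARCH1) and 1 lower (MARCH7), beside 1616 higher and 1615 lower of all 16375 tested rows. That is near the share over all rows in each direction. The 9 rows had a median log2 fold change of 0.04 with 5 positive, beside a median of -0.01 and 49.8% positive over all tested rows. MARCH1 was chosen partly by its androgenetic values, and the 8 tested rows without it had a median of -0.07 with 4 positive. Scaling by DESeq2 size factors moved the all-row median to 0.13 and left 5 of the 9 positive, and with limma voom it was -0.54 and 2 of the 9 were positive. DESeq2 and limma voom each called MARCH1 higher and no other member of the family.

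MARCH8 averaged 3.97 ± 5.87 CPM in androgenetic libraries, 3.20 ± 1.87 CPM in parthenogenetic libraries and 4.48 ± 1.66 CPM in ICSI libraries. Its androgenetic libraries ran from 0 to 13.8 CPM, on both sides of the ICSI range of 2.56 to 6.36, and its log2 fold change from ICSI was -0.18 ± 1.09 (edgeR adjusted p = 0.952). MARCH7, a ligase also called axotrophin, had a mean of 17.2 ± 9.08 CPM over androgenetic libraries, 34.6 ± 14.7 CPM over parthenogenetic libraries and 38.3 ± 18.6 CPM over ICSI libraries. Its androgenetic replicate 6 (32.6 CPM) lay inside the ICSI range of 20.2 to 68.8 CPM and the other 4 below it. It had -1.15 ± 0.46 against ICSI (adjusted p = 0.169) and -1.01 ± 0.46 in androgenetic minus parthenogenetic (adjusted p = 0.247). Without the library with fewest rows in each group, the second difference was -1.41 ± 0.38 and passed (adjusted p = 0.0278 in edgeR).

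MARCH6 had 13.8 ± 10.2 CPM in androgenetic morulae, 18.9 ± 4.98 CPM in parthenogenetic morulae and 13.4 ± 3.47 CPM in ICSI morulae. MARCH5 had 4.47 ± 5.13 CPM in androgenetic morulae, 7.58 ± 3.99 CPM in parthenogenetic morulae and 6.91 ± 4.04 CPM in ICSI morulae. Neither passed in any contrast in edgeR. MARCH3 stood between 20.3 and 43.6 CPM in androgenetic replicates 1, 2, 4 and 5 but had no count in replicate 6. Its parthenogenetic libraries had 19.5 to 54.5 CPM and its ICSI libraries 18.5 to 47.8. MARCH2, MARCH4 and MARCH11 were below 9 CPM in every library. MARCH9 and MARCH10 did not pass the expression filter, with highest values of 0.676 CPM in parthenogenetic replicate 1 and 3.74 CPM in ICSI replicate 5.

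**Figure D5:**
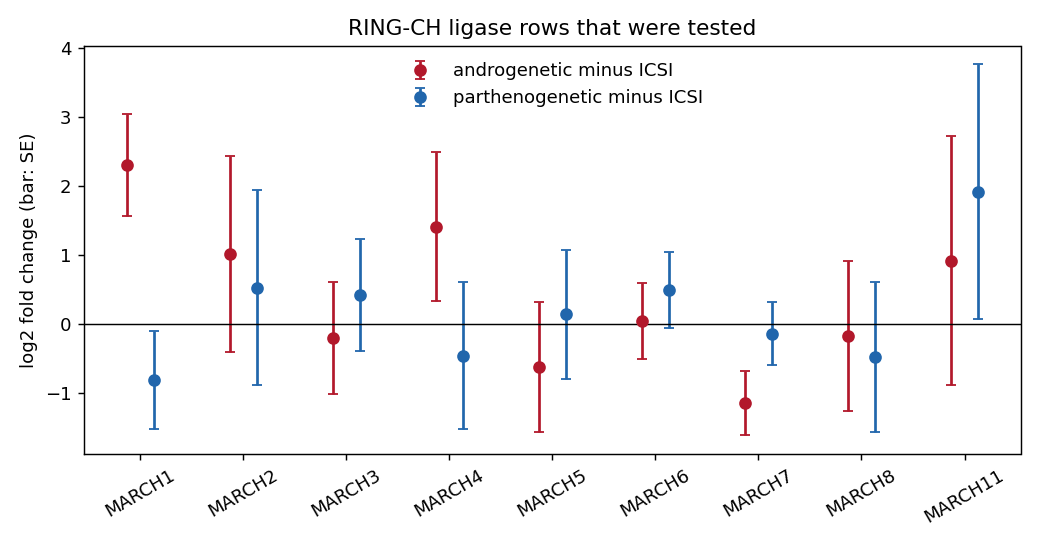
Points are edgeR log2 fold changes with their SE for the 9 tested RING-CH ligase rows, with androgenetic minus ICSI left of parthenogenetic minus ICSI for each gene. MARCH1, which was chosen partly by its androgenetic values, has the highest androgenetic value (2.30) and MARCH7 the lowest (-1.15), and none passed in edgeR.

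Of the other gene families of the members, PTPN20 had 1 relative with a row, the receptor phosphatase PTPRH, which was at or below 0.593 CPM in every library and was not tested. NWD2 had none among the listed NACHT and NB-ARC ATPases. The listed MARCH1 substrates, MHC class II genes and ubiquitin-conjugating partners had no row under their symbols and were not analysed here.

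The symbol rows were not always alone in the table. ENSBTAG00000044082 had the same counts as MARCH1 in all 15 libraries, and ENSBTAG00000001491 lay within 5% or 3 counts of NWD2 in 11 libraries and was identical in 7. Where those 2 rows differed most, in androgenetic replicate 5, the Ensembl row had 607 counts and NWD2 had 466. With the Ensembl row in place of NWD2, androgenetic minus ICSI was 4.74 ± 0.82 (edgeR adjusted p = 0.0270). PTPN20 had no such partner row. The partner rows may hold the same reads as the symbol rows, so the Ensembl row is not a separate check on NWD2. Whether the partner rows are the same genes under other names was not checked, and the background shares count them as separate rows.

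Likeness was measured as the Spearman correlation of log2 CPM over the 15 libraries, which share the group differences that chose the genes, and is a description. Between members it was 0.818 for NWD2 and MARCH1, 0.743 for PTPN20 and MARCH1 and 0.668 for NWD2 and PTPN20. After each group's mean was subtracted, the Pearson correlations were 0.542, 0.231 and 0.194. Only 562 of the 16375 tested rows had a gene symbol, so the rows named here are the most alike among those and not among all genes. The symbol rows most like NWD2 were the kinase gene TNIK (0.850), RAMMET (0.850) and HMGN2 (0.843), a nucleosome-binding protein gene. Those most like PTPN20 were EDA2R (0.872), a receptor of the TNF receptor superfamily, the zinc finger gene ZIM3 (0.846) and SPHAR (0.829). Those most like MARCH1 were the galectin gene LGALS7B (0.839), NWD2 itself and PGPEP1L (0.807).

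When ranked by the correlation of deviations from group means, the nearest 3 symbol rows shared 0 of 3 names with those above for NWD2, 0 for PTPN20 and 1 for MARCH1. In those deviations TNIK had a correlation of 0.746 with NWD2, HMGN2 0.416 and RAMMET 0.311. ZIM3 had 0.587 with PTPN20, SPHAR 0.522 and EDA2R 0.100. PGPEP1L had 0.656 with MARCH1 and LGALS7B 0.414. EDA2R had a mean of 4.19 ± 3.36 CPM in androgenetic libraries, against 3 counts in all 5 parthenogenetic and 11 in all 5 ICSI libraries together. The unnamed row ENSBTAG00000007273 was the one most like PTPN20 (0.904), at 16.9 ± 11.2 CPM in androgenetic morulae, 1.93 ± 1.56 CPM in parthenogenetic morulae and 6.78 ± 7.41 CPM in ICSI morulae.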

How the data were processed

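The authors deposited 1 table of raw counts, whole numbers with a row per gene and a column per library, with no normalization. Per the labels' protocols, polyadenylated RNA was prepared with SMART-Seq HT and Nextera XT kits. Per the submitters' processing notes, Trim Galore, cutadapt, STAR and featureCounts were used, and the genome build, annotation and strand setting are not given in the sources used here, so overlapping or antisense genes cannot be separated. Groups and replicate numbers came from the labels, and nothing says that replicates were separate embryos or cultures, so p-values measure the spread between these libraries. The members, lists and naming rule (the members, the listed relatives, and for each member the 3 symbol rows and 1 other row most like it among rows averaging at least 1 CPM) were chosen with earlier results of these data known.

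The test was edgeR 4.0.16 (R 4.3.3): TMM factors, the default expression filter by group, 1 quasi-likelihood fit of all 15 libraries and Benjamini-Hochberg adjustment over 16375 rows, with calls at an adjusted p under 0.05. SE was taken as the size of the log2 fold change over the root of the F statistic. CPM was computed on library sizes scaled by the TMM factors. Scripts were tested on simulated counts. DESeq2 1.42.0, limma 3.58.1, other scaling factors, no filter, a replicate block, a covariate and left-out libraries were alternatives. RefSeq names (assembly ARS-UCD2.0) matched the 3 members and 9 of the 11 RING-CH ligase rows, and its gene order gave the neighbours, with no coordinates printed.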

Additional observations from a re-analysis of the deposited data

Results flagged for a closer look

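In the 9 sets of 5 libraries (3 genes in 3 groups), 3 had a library set far from the others by Dixon's criterion on CPM without a log. Its rate of about 1 in 20 sets flagged by chance holds for normally distributed values. Whether these CPM follow that shape was not checked, and skewed values are flagged more often. The criterion was not applied on the log scale. NWD2 in parthenogenetic replicate 6 was 17.1 CPM, with the next at 3.71. NWD2 in ICSI replicate 5 was 3.79 CPM and PTPN20 in the same library 12.1 CPM, with the next ICSI values at 1.52 and 4.61. These were the libraries with the fewest rows detected in their groups, at 16154 and 15286, and the part of detection in these values was not tested.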

How the results depend on the processing

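For the 3 members, 1 alternative turned a direction: with rows detected as a covariate, the mean of both haploid groups minus ICSI for PTPN20 was -0.048. NWD2 in androgenetic minus ICSI lost its call with the replicate block (4.44, adjusted p = 0.0950 in edgeR) and with that covariate (4.14), and ranged from 4.38 to 5.25 with 1 library left out. PTPN20 gained a call with DESeq2 (2.01) and without the library with fewest rows in each group (2.44), and ranged from 1.65 to 2.57. MARCH1 gained one with DESeq2 (2.41), limma voom (2.61) and without those libraries (3.20), and ranged from 2.02 to 3.005. In androgenetic minus parthenogenetic, NWD2 was 4.58 without those libraries. Among the relatives, the RING-CH median in androgenetic minus ICSI (0.04) was -0.42 with limma voom, -0.37 with the block and -0.03 with the covariate. It was -0.06 in a fit of these groups alone (8 rows tested), -0.23 without androgenetic replicate 5 and -0.002 without ICSI replicate 1. MARCH7 in parthenogenetic minus ICSI (-0.15) was 0.33 without the 3 libraries, 0.16 without ICSI replicate 5 and 0.02 without parthenogenetic replicate 6. The cause of these changes was not tested.

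Rows called in androgenetic minus ICSI were 461, against 1987 with DESeq2, 876 with limma voom, 0 with the replicate block or the covariate and 1630 without the 3 libraries, and 0 to 1077 with 1 library left out. In parthenogenetic minus ICSI they were 12, against 39 with DESeq2, 3 with the block and 6 without the 3 libraries, and 3 to 14 with 1 left out. For the haploid mean minus ICSI they were 6, against 259, 14 with limma voom, 1 with the block and 3, and 2 to 10. In androgenetic minus parthenogenetic they were 287, against 1678 with DESeq2, 703 with limma voom, 88 with the block, 154 with the covariate, 1874 without the 3 libraries and 27 in a fit of these groups alone, and 14 to 903. Same-numbered libraries correlated at -0.05 to 0.09 in their deviations from group means, and the numbers were not taken to pair libraries. Differently numbered libraries were not compared in this way, and whether same-numbered libraries shared a batch was not tested.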

Other observations

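Among the nearest RefSeq protein-coding genes around the 3 members, 1 had a row under its name: LOC101906734, the neighbour that follows NWD2. It had 0.0439, 0, 1.05, 8.37 and 3.36 CPM in androgenetic replicates 1, 2, 4, 5 and 6, at most 0.747 CPM in parthenogenetic and at most 0.334 CPM in ICSI libraries. The row was below the expression filter and was not tested. Most of its counts lay in androgenetic replicates 4, 5 and 6 (28, 141 and 62), while NWD2 was highest in replicates 1 and 2. The Ensembl row that nearly matches NWD2 exceeded it by most in androgenetic replicates 5 and 6, at 607 against 466 and 490 against 428 counts. Each excess equals the LOC101906734 count of that library (141 and 62). The match failed in androgenetic replicate 4 (535 against 531, LOC101906734 28) and parthenogenetic replicate 6 (415 against 384, LOC101906734 1). Whether these rows share reads was not tested.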
